A study of Mus musculus with 2 samples.

Results

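The tumour necrosis factor (TNF) superfamily genes encode the ligands of this cytokine family and the receptors that bind them. The members were the protein-coding RefSeq genes on mm10 with a symbol starting Tnfsf or Tnfrsf, plus Tnf, Lta, Ltb, Ltbr, Fas, Fasl, Cd27, Cd40 and Cd70. This gave 41 of 21887 protein-coding genes, 17 ligands and 24 receptors. The rule used gene symbols and no measured value. The measurement was CUT&Tag, in which an antibody directs a transposase to cut and tag nearby DNA, with an antibody against PHLPP1, a phosphatase known for acting on the kinase AKT. Both groups were primary alveolar macrophages from lavage of the airways of wild-type mice. The untreated group received no cytokine and the IL-4 group received interleukin-4, a cytokine that drives alternative activation of macrophages, at 20 ng/ml for 4 h. Each group was 1 library, and strain, age, sex and the number or pooling of mice are not given in the sources used here.

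TNF superfamily ligands are mostly trimeric membrane proteins, some of which are shed as soluble cytokines. Their receptors fall into those with a death domain, which can engage caspases and cell death, those that bind TRAF adaptors and signal to NF-kB and MAP kinases, and decoys without a signalling tail. Alveolar macrophages are a known source of TNF in the lung, whereas several costimulatory members, such as CD27 and OX40, are best known from lymphocytes.

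A region here is 1 row of the authors' peak list for a library, and a gene's window is its body with 5 kb on each side. Fold is the authors' deposited ratio of the fragment pileup at the summit to the local background of that library. Pileup, in fragments, was recovered from the deposited fold and p, and is not scaled between libraries. The untreated list held 165968 regions over a constant background of 13.9 fragments and the IL-4 list 226476 over 15.9, a background ratio of 1.14. With 1 library per group no test between groups was possible, and every difference describes these 2 libraries. Intervals cover counting error only, and fragments amplified by PCR are not independent molecules. Intervals on shares treat genes or regions as independent, although 10 members share a window with another member. Stronger signal in each cell and signal in more of the cells cannot be told apart. A control antibody library was not analysed here, and the part of the signal that depends on the antibody was not measured. Alveolar macrophage markers had regions in the windows of 10 of 10 genes in both libraries, and a region of −log10 q at least 5 at 4 of 10 and then 10 of 10. The same 2 counts at −log10 q at least 5 were 2 and 8 of 10 for T and B lymphocyte markers, 3 and 4 of 6 for granulocyte markers, and 2 and 5 of 6 for lung epithelium markers. Over all protein-coding genes the share with such a region was 53.3% and then 75.4%, so more genes had one in the IL-4 library in each list and in general. The part of other cell types in the results below was not tested.

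The 250 bases before the start of 7 members are shown, and the regions at these starts are described below. Other starts described below are not printed, so the 7 do not stand for all family starts. The start region of Tnfrsf1b was in the IL-4 library alone. At the others the ratio of IL-4 to untreated pileup ran from 1.20 at Tnfrsf1a to 2.22 at Tnfrsf21. The printed bases are RefSeq sequences on GRCm38.p6, written 5′ to 3′ on the gene's own strand. Capitals mark matches, on either strand, to NF-kB (GGGNNNNNCC), STAT6 (TTCNNNNGAA) or the TATA box (TATAAA). Tnf lies at chr17:35202008-35202257, minus strand, and its 250 bases were covered whole by a region in both libraries.
Tnf: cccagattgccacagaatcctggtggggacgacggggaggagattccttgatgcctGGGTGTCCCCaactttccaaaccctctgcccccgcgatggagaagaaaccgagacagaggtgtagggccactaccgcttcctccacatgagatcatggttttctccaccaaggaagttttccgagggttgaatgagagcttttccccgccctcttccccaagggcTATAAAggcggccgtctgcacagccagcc
Fas lies at chr19:34290409-34290658, plus strand, also covered whole in both libraries.
Fas: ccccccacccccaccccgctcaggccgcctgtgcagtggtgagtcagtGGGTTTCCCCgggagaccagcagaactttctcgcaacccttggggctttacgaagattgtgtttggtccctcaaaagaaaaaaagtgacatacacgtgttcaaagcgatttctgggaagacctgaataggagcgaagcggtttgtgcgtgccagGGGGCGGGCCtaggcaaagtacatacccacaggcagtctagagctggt
Tnfrsf21 lies at chr17:43016305-43016554, plus strand, with 186 untreated and 249 IL-4 bases covered.
Tnfrsf21: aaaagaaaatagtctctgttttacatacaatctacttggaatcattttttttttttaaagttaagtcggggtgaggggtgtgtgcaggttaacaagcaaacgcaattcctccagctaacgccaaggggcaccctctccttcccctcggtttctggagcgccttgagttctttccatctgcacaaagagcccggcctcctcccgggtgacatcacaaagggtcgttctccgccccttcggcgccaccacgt
Ltbr lies at chr6:125313886-125314135, minus strand, covered whole in both libraries.
Ltbr: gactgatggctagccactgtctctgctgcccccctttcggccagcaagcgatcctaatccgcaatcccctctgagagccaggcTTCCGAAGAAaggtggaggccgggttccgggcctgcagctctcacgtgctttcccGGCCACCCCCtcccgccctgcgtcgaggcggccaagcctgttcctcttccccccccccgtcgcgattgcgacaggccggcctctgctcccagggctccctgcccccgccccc
Tnfrsf1b lies at chr4:145246871-145247120, minus strand, with 0 untreated and 250 IL-4 bases covered.
Tnfrsf1b: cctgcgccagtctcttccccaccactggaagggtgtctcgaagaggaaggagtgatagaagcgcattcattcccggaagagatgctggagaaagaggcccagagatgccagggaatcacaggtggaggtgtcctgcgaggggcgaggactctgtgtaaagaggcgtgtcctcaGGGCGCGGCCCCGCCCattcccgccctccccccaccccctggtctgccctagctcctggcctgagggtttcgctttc
Tnfrsf18 lies at chr4:156026072-156026321, plus strand, covered whole in both libraries and without a capitalised match.
Tnfrsf18: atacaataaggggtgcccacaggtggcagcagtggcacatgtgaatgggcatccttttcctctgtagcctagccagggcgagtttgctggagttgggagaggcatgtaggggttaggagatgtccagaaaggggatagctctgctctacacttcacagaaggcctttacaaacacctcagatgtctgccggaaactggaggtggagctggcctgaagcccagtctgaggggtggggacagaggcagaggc
Tnfrsf1a lies at chr6:125349473-125349722, plus strand, with 185 and 180 bases covered.
Tnfrsf1a: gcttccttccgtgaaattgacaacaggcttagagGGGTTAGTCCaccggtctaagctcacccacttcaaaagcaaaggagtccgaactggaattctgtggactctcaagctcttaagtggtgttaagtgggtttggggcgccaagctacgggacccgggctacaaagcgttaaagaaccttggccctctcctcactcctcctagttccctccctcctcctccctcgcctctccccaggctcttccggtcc

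Every TNF superfamily gene had a region in its window in the IL-4 library, and most did in the untreated library. In the untreated library 34 of 41 members (82.9%, exact Clopper-Pearson 95% interval 67.9 to 92.8) had one, beside 82.1% of all protein-coding genes. In the IL-4 library it was 41 of 41 (100%, 91.4 to 100), beside 87.6% of all genes. Ligands went from 12 of 17 to 17 of 17, and receptors from 22 of 24 to 24 of 24. The 7 members with a region in the IL-4 library alone were Cd27, Cd70, Fasl, Tnfrsf11b, Tnfsf4, Tnfsf9 and Tnfsf18. They made 17.1% of the members (7.15 to 32.1), beside 7.55% of all genes, a share that this interval holds. No member had a region in the untreated library alone (0%, 0 to 8.6), beside 2.04% of all genes.

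Among strong regions, those of −log10 q at least 5, the 2 libraries stood further apart. In the untreated library 19 of 41 members had a strong region (46.3%, 30.7 to 62.6), beside 53.3% of all genes. In the IL-4 library 36 of 41 did (87.8%, 73.8 to 95.9), beside 75.4% of all genes. The members were thus below the background share in the untreated library and above it in the IL-4 library, but both intervals hold the background. For 17 members (41.5%, 26.3 to 57.9) only the IL-4 library had a strong region in the window, beside 23.1% of all genes. These were Cd27, Cd40, Cd70, Ltbr, Tnfrsf4, Tnfrsf9, Tnfrsf13b, Tnfrsf13c, Tnfrsf17, Tnfrsf18, Tnfrsf22, Tnfrsf23, Tnfrsf25, Tnfrsf26, Tnfsf8, Tnfsf10 and Tnfsf15. This count rests on the strength limit, and a weaker untreated region can lie at the same place. At Tnfrsf18 all 3 strong IL-4 regions overlapped an untreated region. Receptors with a strong region went from 10 to 23 of 24 and ligands from 9 to 13 of 17. The 5 members without one in either library were Fasl, Tnfrsf11b, Tnfsf4, Tnfsf9 and Tnfsf18.

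**Figure D1:**
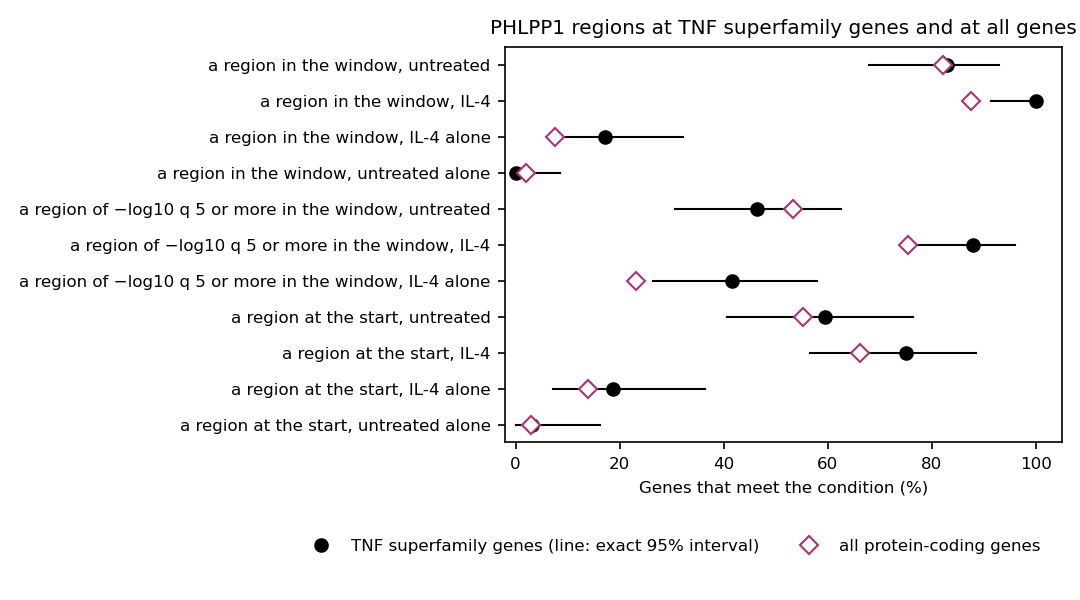
Share of genes (%) that meet each condition, for the TNF superfamily genes (filled points, with exact 95% intervals as lines) and for all protein-coding genes (open diamonds). The members sit at 41.5% against 23.1% for a strong region in the IL-4 library alone, where weaker untreated regions can be present. For any region in the untreated library both sit near 82%.

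At transcription starts the members stayed close to the background. Of the 32 members whose start is in the reference, 19 (59.4%, 40.6 to 76.3) had a region within 1 kb of it in the untreated library, beside 55.2% of all genes with a known start. In the IL-4 library 24 did (75%, 56.6 to 88.5), beside 66.2%. A start region in the IL-4 library alone occurred at 6 members (18.8%, 7.21 to 36.4), namely Cd27, Ltb, Tnfrsf1b, Tnfrsf9, Tnfsf8 and Tnfsf10, beside 13.9% of all genes. A start region in the untreated library alone occurred at 1 member, Tnfrsf4 (3.12%, 0.0791 to 16.2), beside 2.89%. Fasl, Lta, Tnfrsf8, Tnfrsf13b, Tnfrsf17, Tnfsf11 and Tnfsf18 had no start region in either library.

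The IL-4 library held more than 2 regions in the family's windows for each region of the untreated library. Counted once over the merged windows of 1147 kb, there were 87 untreated and 192 IL-4 regions, or 0.759 and 1.67 per 10 kb. The ratio of the numbers was 2.21 (95% Poisson interval 1.71 to 2.84), beside 1.5 over the windows of all protein-coding genes, where the density was 0.725 and 1.08 per 10 kb. More regions in the IL-4 library were seen at 36 of 41 members (87.8%), beside 62.8% of all genes. Lta, Tnf, Tnfrsf18 and Tnfrsf25 had equal numbers and Tnfsf13b had fewer, 4 and then 3.

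**Figure D2:**
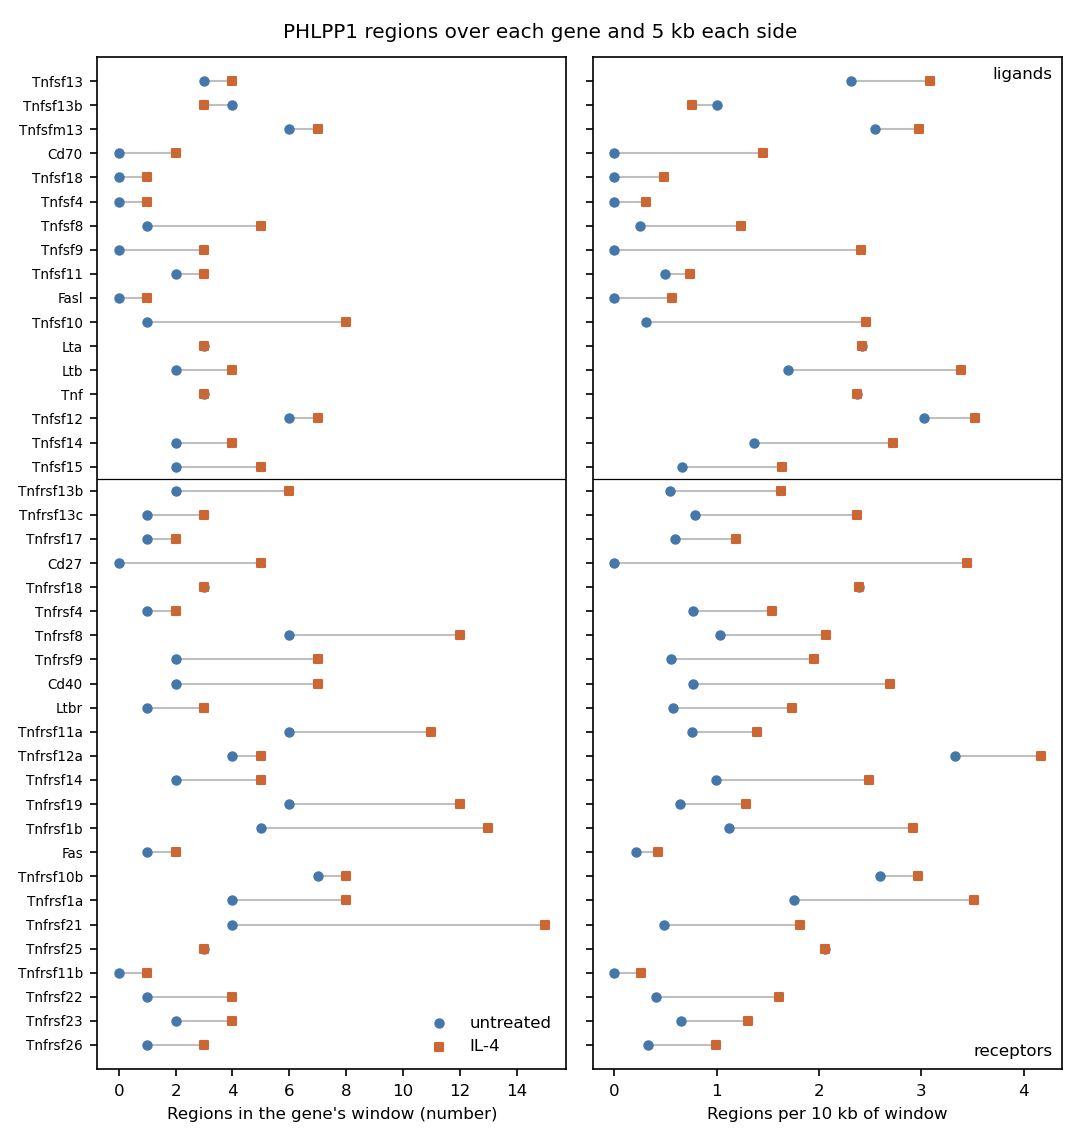
Each TNF superfamily gene with its number of regions (left) and its regions per 10 kb of window (right) in the untreated and the IL-4 library. The horizontal line separates ligands and receptors, and points of equal value cover each other. Tnfrsf21 has the widest gap in number, 4 untreated against 15 IL-4 regions, and Tnfsf13b is the only gene with fewer IL-4 regions, 4 against 3.

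The regions found in 1 library alone split unevenly. Of the 87 untreated regions, 14 overlapped no IL-4 region (16.1%, 9.09 to 25.5), beside 31.3% in the windows of all genes. Of the 192 IL-4 regions, 120 overlapped no untreated region (62.5%, 55.2 to 69.4), beside 54.7%. Most of these additional regions lay inside genes: 75 of the 111 IL-4 regions in member bodies were in that library alone (67.6%, 58 to 76.1), beside 57.2% of IL-4 regions in the bodies of all genes and away from known starts. At member starts it was 11 of 32 (34.4%, 18.6 to 53.2), beside 31% at the starts of all genes, so the same split between body and start was present across all genes. Regions at the start of any gene made 28.7% of the untreated and 19.3% of the IL-4 regions, beside 12.4% and 10.7% in the windows of all genes. Such shares depend on window length, which was not accounted for. The merged windows covered 1147 kb for the 41 members and 1.18e+06 kb for all 21887 genes. Counted by gene, start regions stayed close to the background, as given above. The 5 IL-4 regions of highest −log10 q without an untreated counterpart were at Tnfrsf23 (fold 3.56), Tnfrsf22 (3.38), Tnfrsf1b (3.15) and Tnfrsf21 (3.20 and 3.14). The strongest found in the untreated library alone were weaker, at Tnfrsf19 (fold 2.68 and 2.41), Tnfrsf10b (2.25), Tnfrsf12a (2.19) and Tnfrsf25 (2.12).

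Where both libraries had a region at the same place, the pileup was usually higher in the IL-4 library. The 72 shared places had a median ratio of IL-4 to untreated pileup of 1.60 (95% order-statistic interval 1.55 to 1.73), beside 1.33 for shared places in the windows of all genes and the background ratio of 1.14. The ratio was above 1 at 69 places and below 1 at 3. It reached 1.5 or more at 47 of 72 (65.3%, 53.1 to 76.1), beside 33.6% of 57365 places in all windows. A pileup at least 1.5 times as high in the untreated library occurred at 0 of 72 (0%, 0 to 4.99), beside 0.0418%. The interval of the single ratio lay above 1 at 46 places and below 1 at none. The counts against a ratio of 1 were not made for all genes. There the lower quartile of the ratio was 1.13, beside 1.45 for the family, so a ratio above 1 was common in all windows. The difference from all genes was larger among weak places: below an untreated fold of 3 the medians were 1.60 for the family (60 places) and 1.30 for all genes, and at or above it 1.68 (12 places) and 1.55. Summits of the 2 libraries lay a median of 71 bp apart.

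**Figure D3:**
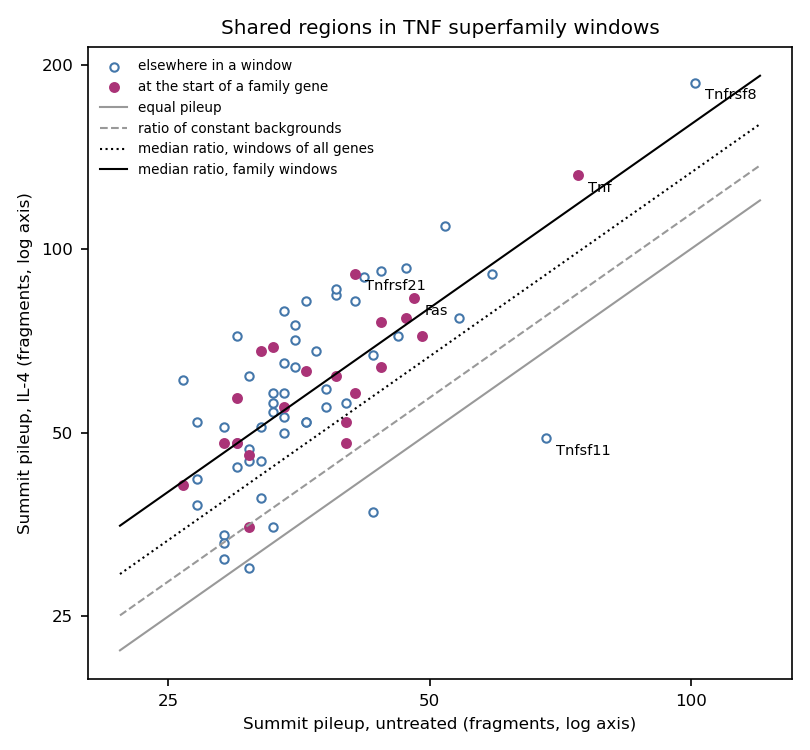
Summit pileup in the untreated (x, fragments, log axis) and IL-4 (y, fragments, log axis) libraries at the 72 shared places, filled where the place is at the start of a family gene; lines give equal pileup, the background ratio and the median ratios of the family and of all genes. Nearly all points lie above the line of equal pileup, with Tnfsf11 (68 against 49) below it and Tnfrsf8 (101 against 187) at the top.

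The surroundings of the members also had ratios above 1, to a lesser degree at most of them. Over the 33 members with a shared place, 27 had a median ratio above that of the other shared regions within 1 Mb and 6 below it, a distance chosen after the data were seen. The medians were 1.70 for the members and 1.44 for their surroundings. The same count was not made for all genes, whose windows had a median of 1.33, beside 1.26 over all shared regions. Members that share windows also share places, so some places count more than once. Tnfsf12 and Tnfsfm13, for example, have the same 5. The 6 below were Tnfsf11, Tnfrsf10b, Tnfrsf13b, Tnfrsf13c, Tnfrsf19 and Tnfrsf22.

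Among the inflammatory ligands, Tnf, the cytokine that gives the family its name, had the strongest region at a family start. Its gene lies at chr17:35199367-35202007 on the minus strand, between Ltb and Lta, the lymphotoxin genes that share its locus. The region over the Tnf start spanned chr17:35201714-35202589 in the untreated and chr17:35201807-35202488 in the IL-4 library. Its pileup was 74 fragments in the untreated and 132 in the IL-4 library, and its fold 4.88 and 5.53. The ratio of pileups was 1.78 (95% Poisson interval 1.34 to 2.37). The summits lay 129 and 135 bp before the start, between the NF-kB match that begins 194 bases before the start and the TATA match 29 bases before it in the printed promoter. A second shared region within the Tnf body had 47 and 93 fragments, folds of 2.87 and 3.50 and a ratio of 1.98 (1.39 to 2.81).

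The lymphotoxin genes on either side had shared regions away from their starts. In the Ltb body a region had 33 and 69 fragments, folds of 2.28 and 3.40 and a ratio of 2.09 (1.38 to 3.17), with its summit 1.40 kb after the Ltb start. Only the wider IL-4 region, of fold 3.40, reached within 1 kb of that start. Beyond Lta a region 4.60 kb from the gene in the untreated library had 35 and 64 fragments, a ratio of 1.83 (1.21 to 2.76) and folds of 2.41 and 3.85. Lta itself had no start region in either library, so the fold of 5.53 in its window is that of the Tnf start. The 4 shared places of this locus all had more fragments in the IL-4 library, beside a median ratio of 1.66 in the surrounding 1 Mb.

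**Figure D4:**
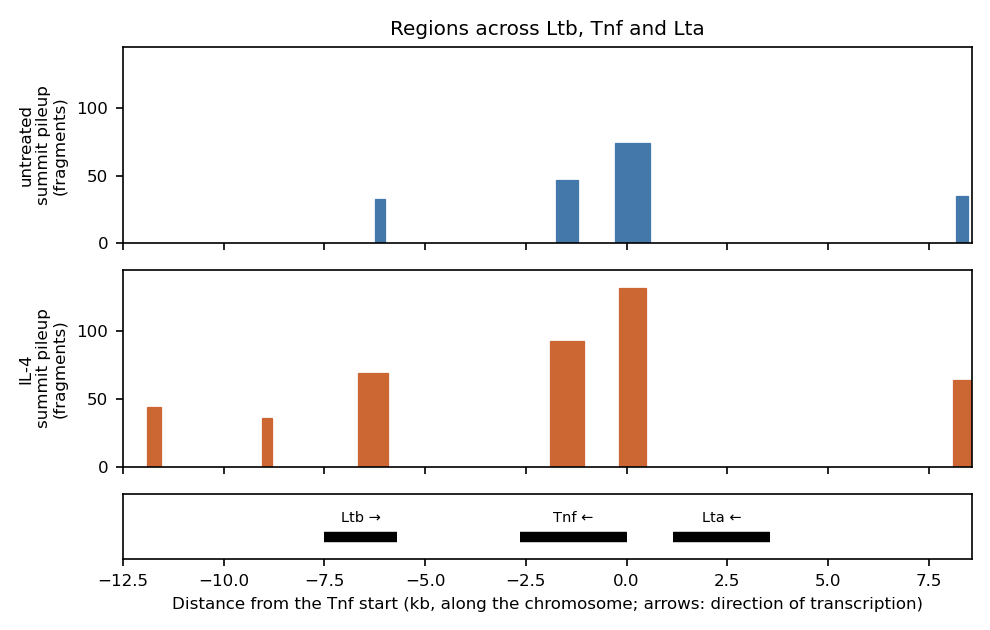
Regions across Ltb, Tnf and Lta by distance from the Tnf start (kb), each drawn at its width with its summit pileup (fragments) as height, one panel per library, above the genes with arrows for the direction of transcription. The tallest region stands at the Tnf start in both panels, at 74 and 132 fragments, and none stands at the Lta start.

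Tnfsf14 and Tnfsf15 had regions at their starts in both libraries. Tnfsf14, which encodes LIGHT, a ligand of HVEM and of the lymphotoxin beta receptor, had 44 and 64 fragments at its start, folds of 3.02 and 3.34 and a ratio of 1.45 (0.991 to 2.14). A region 4.24 kb from the gene differed more, with 36 and 82 fragments, a ratio of 2.28 (1.54 to 3.37). Tnfsf15, which encodes TL1A, had 30 and 48 fragments at its start (1.60, 1.01 to 2.52), and its regions numbered 2 and 5. Tnfsf12, which encodes TWEAK, shares its window with Tnfsf13 and with the read-through gene Tnfsfm13, so their regions cannot be assigned to one gene alone.

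BAFF and APRIL, the ligands that sustain B cells, had start regions in both libraries. Tnfsf13b, the BAFF gene, had 47 and 77 fragments at its start, with folds of 3.22 and 4.62 and a ratio of 1.64 (1.14 to 2.35). Its other 2 shared places were closer to equal, at 1.41 and 1.14. Tnfsf13, the APRIL gene, had 49 and 72 fragments at its start (1.47, 1.02 to 2.11), while the fold was slightly lower in the IL-4 library, 3.16 against 3.35, over a higher local background. At the start of Tnfsfm13 the pileups were 44 and 76 (1.73, 1.19 to 2.50) and the folds 3.02 and 3.82. The highest fold in this cluster, 4.46 in the IL-4 library, belonged to a region at the start of Senp3, a neighbouring gene outside the family, with 42 and 90 fragments (2.14, 1.49 to 3.09).

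Tnfsf11 was the clearest case in the other direction. This gene encodes RANKL, the ligand that drives osteoclast formation. A region 4.07 kb after its start had 68 fragments in the untreated and 49 in the IL-4 library, with folds of 4.63 and 2.96. The ratio was 0.721, the lowest of the 72, and its interval of 0.499 to 1.04 included 1. The 54 shared regions in the surrounding 1 Mb had a median ratio of 1.34.

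The death ligands held more regions in the IL-4 library. Tnfsf10, the TRAIL gene, had 1 untreated and 8 IL-4 regions. Its shared region had 32 and 51 fragments (1.59, 1.02 to 2.48), and a region of 29 fragments at its start, fold 1.78, was found in the IL-4 library alone. Fasl, the ligand of FAS, had 1 weak IL-4 region of 30 fragments and fold 1.84 inside the gene.

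The T cell costimulatory ligands went from 1 of 5 with a region in the window to 5 of 5, beside 82.1% and 87.6% of all genes. With a strong region they went from 0 to 2 of 5, Cd70 and Tnfsf8, beside 53.3% and 75.4% of all genes. Tnfsf8, the CD30 ligand gene, was the one with an untreated region, with 31 and 62 fragments at its shared place (2.0, 1.30 to 3.08), and regions numbering 1 and 5. Its start region of 33 fragments, fold 2.02, was in the IL-4 library alone. Cd70, the ligand of CD27, had 2 IL-4 regions, the stronger of fold 3.02 and 50 fragments lying 3.32 kb from the gene. Tnfsf9, the 4-1BB ligand gene, had 3 of fold 2.08 to 2.23. Tnfsf4, the OX40 ligand gene, had 1 of fold 2.08 (34 fragments), and Tnfsf18, the GITR ligand gene, 1 of fold 2.31 (38 fragments).

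The absence of untreated regions at these genes depended on the size of the window. The nearest untreated region was 5.08 kb from Tnfsf9, just outside the window, with a fold of 3.69 and 54 fragments. It was 6.08 kb from Cd70, 6.09 kb from Tnfsf4, 6.61 kb from Tnfrsf11b and 8.58 kb from Fasl. With 10 kb on each side only Cd27, at 16.6 kb, and Tnfsf18, at 12.0 kb, remained in the IL-4 library alone. These were 2 of 41 members, beside 5.31% of all genes, so at that size the family was close to the background.

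The death domain receptors with a known start, 4 of 4, had a start region in both libraries, beside 55.2% and 66.2% of all genes with a known start. These regions differed among themselves in height. Tnfrsf21 encodes DR6, a death receptor expressed in many tissues. At its start, chr17:43016555, the pileup was 41 in the untreated and 91 in the IL-4 library, with folds of 2.82 and 5.45. The ratio of 2.22 (1.54 to 3.21) was the highest at a family start. Across its window the number of regions was 4 and 15, and 3 further shared places had ratios of 1.40, 1.47 and 1.76. Both summits lay within 12 bp of the start, just past the end of the printed promoter, which holds none of the 3 marked motifs.

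Fas, the receptor of FAS ligand and a classical death receptor, had a single untreated region, at its start at chr19:34290303-34290801. The pileup was 48 and then 83 fragments, with folds of 3.29 and 4.98 and a ratio of 1.73 (1.21 to 2.47). The summits lay 45 and 73 bp before the start, the first of them within the second capitalised NF-kB match, which begins 48 bases before the start. The IL-4 library added 1 region of 38 fragments about 4 kb into the gene.

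Tnfrsf1a, which encodes the widely expressed TNF receptor TNFR1, had a lower ratio at the region over its start than Tnfrsf21 and Fas. Pileups there were 40 untreated and 48 with IL-4. Their ratio was 1.20 with an interval of 0.789 to 1.83, which holds the background ratio and also the ratio at the Fas start. The fold was lower in the IL-4 library, 2.28 against 2.75, over a higher local background. A second shared region within 1 kb of the start had 26 and 41 fragments (1.58, 0.965 to 2.58) and folds of 1.81 and 1.89. A region about 3.8 kb before the gene had 27 and 52 fragments (1.93, 1.21 to 3.07) and folds of 1.88 and 2.87. The window held 4 and 8 regions. In the window of Tnfrsf10b, which encodes the TRAIL receptor DR5, 6 shared places had ratios of 0.860 to 1.47, none with an interval above 1. The highest untreated fold there, 2.68, was at the place of ratio 0.860, which lay in the neighbouring gene Rhobtb2, 0.823 kb from Tnfrsf10b. The highest IL-4 fold, 2.47, lay inside Tnfrsf10b. The surrounding 1 Mb had a median ratio of 1.5. Tnfrsf25, which encodes DR3, the receptor of TL1A, had ratios of 1.30 and 1.41 at its starts.

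Of the receptors that bind TRAF adaptors, Tnfrsf1b, which encodes TNFR2, stood furthest from its surroundings. Its gene lies at chr4:145212368-145246870 on the minus strand and had 5 untreated and 13 IL-4 regions. The strongest shared place, 12.8 kb after the start, had 44 and 92 fragments (2.09, 1.46 to 2.99) and folds of 3.02 and 4.40. The 4 shared places had ratios of 1.64 to 2.35, beside a median of 1.03 over 184 shared regions within 1 Mb. At its start the IL-4 library alone had a region, of fold 2.76 and 59 fragments, with its summit 12 bp after the start, and it covered the whole printed promoter.

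Tnfrsf8, which encodes CD30, a receptor known from activated lymphocytes, is the neighbour of Tnfrsf1b on the same strand, at chr4:145267132-145315164. It held the strongest region of the whole family in both libraries, near the 3′ end of the gene. This region, chr4:145267426-145268666 in the untreated library, had 101 and 187 fragments, folds of 5.14 and 6.15 and a ratio of 1.85 (1.45 to 2.36). In the complete lists it ranked 2254 of 165968 and 3165 of 226476 by fold. Its local background was also high, 18.8 and 29.6 fragments. Next to it a region of 59 and 91 fragments had nearly equal folds, 3.12 and 3.08. Further into the gene, 3 shared places had folds of 4.85, 4.48 and 4.47 in the IL-4 library, from 2.68, 2.82 and 2.35 in the untreated library. Their untreated and IL-4 pileups were 39 and 86, 41 and 82, and 34 and 79 fragments. The 6 shared places of Tnfrsf8 had ratios of 1.54 to 2.32, and its regions numbered 6 and 12, with none at the start. The surrounding shared regions, 196 within 1 Mb, again had a median of 1.03.

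**Figure D5:**
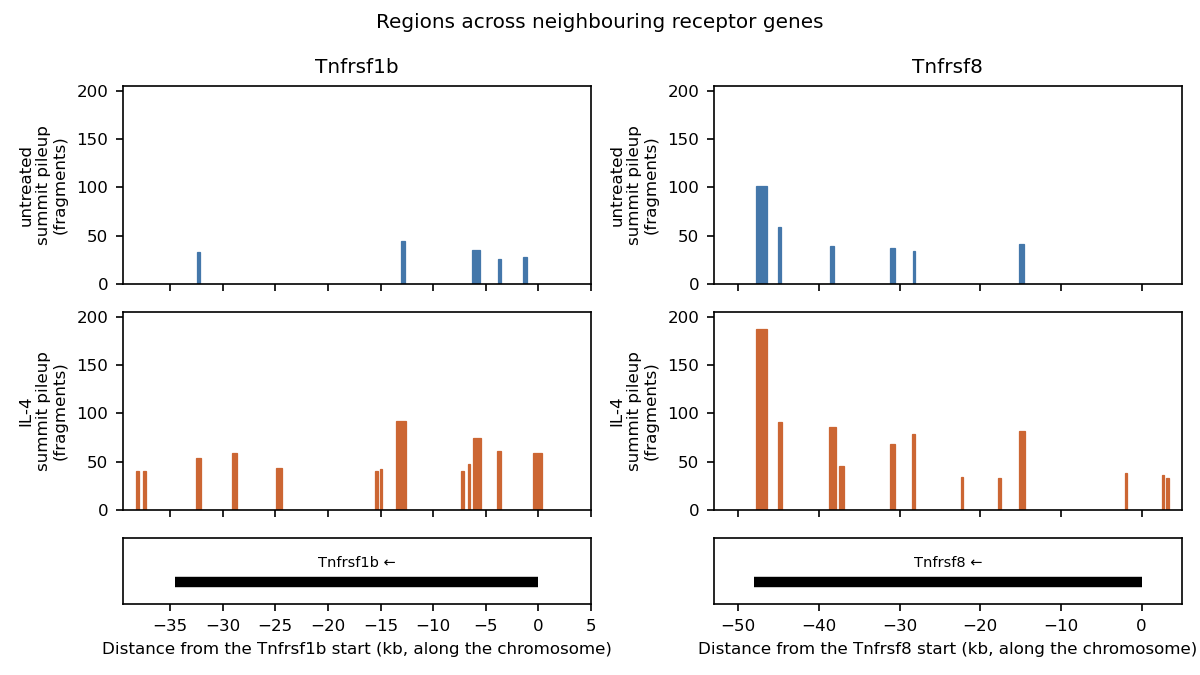
Regions across Tnfrsf1b (left) and Tnfrsf8 (right) by distance from each gene's start (kb), each with its summit pileup (fragments) as height, untreated above IL-4. The IL-4 panels hold more regions, 13 against 5 and 12 against 6, and the tallest, at the far end of Tnfrsf8, reaches 187 fragments against 101.

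Cd40 and Ltbr are receptors through which macrophages receive signals from lymphocytes. Cd40 lies at chr2:165055614-165071654, and its start is not in the reference table used. It had 2 untreated regions and 7 IL-4 regions. A region at one end of the gene had 29 and 51 fragments (1.76, 1.11 to 2.77) and folds of 2.01 and 2.93. A region 3.3 kb beyond the other end had 30 and 72 fragments, folds of 2.08 and 3.23 and a ratio of 2.40 (1.57 to 3.67), the highest of the 72. Ltbr, which encodes the lymphotoxin beta receptor, lies at chr6:125306571-125313885 on the minus strand and had 1 untreated and 3 IL-4 regions. At its start the pileup was 36 and 63 (1.75, 1.16 to 2.64), with folds of 2.48 and 3.70 and summits 102 and 101 bp before the start. These summits lie just after the capitalised NF-kB match of its promoter, which begins 112 bases before the start.

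The other TRAF-binding receptors spanned a range of differences. Tnfrsf14, which encodes HVEM, had 52 and 109 fragments at a region 0.604 kb beyond the gene in the untreated list (2.10, 1.51 to 2.92), with folds of 3.09 and 4.53. Tnfrsf11a, which encodes RANK, the receptor of RANKL, had 5 shared places with similar ratios of 1.56 to 1.71. Tnfrsf12a, which encodes the TWEAK receptor FN14, had 39 and 62 fragments at its start (1.59, 1.07 to 2.37), while its strongest region, of 54 and 77 fragments and fold 3.10 and 3.21, lay at the starts of the neighbouring genes Hcfc1r1 and Thoc6. Tnfrsf19, which encodes TROY, had 31 and 35 fragments at a start (1.13, 0.696 to 1.83), and regions numbering 6 and 12.

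The T cell costimulatory receptors other than Tnfrsf8 had weaker regions. Tnfrsf18, which encodes GITR, had 32 and 68 fragments at its start, a ratio of 2.12 (1.40 to 3.23), and folds of 2.21 and 3.96. Tnfrsf4, the neighbouring OX40 gene, had 1 untreated region of fold 2.21 (32 fragments) 478 bp after its start and 2 IL-4 regions further into the gene, the stronger of fold 2.71, and none of the 3 overlapped. Tnfrsf9, which encodes 4-1BB, had 2 and 7 regions, with 30 and 48 fragments at its shared place (1.60, 1.01 to 2.52) and a start region of fold 1.78 in the IL-4 library alone. Cd27, whose product binds CD70, had 5 IL-4 regions of fold 1.75 to 2.57, including 1 of fold 2.32 and 39 fragments with its summit 339 bp after the start. Of the 5 receptors of this group, 1 had a strong region in the untreated and 5 in the IL-4 library, beside 53.3% and 75.4% of all genes. T and B lymphocyte markers had a region in the window of 6 and then 10 of 10 genes, and the part of lymphocytes in these counts was not tested.

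The receptors of BAFF and APRIL, which are best known from B cells, had a strong region at 0 of 3 genes in the untreated and 3 of 3 in the IL-4 library, beside 53.3% and 75.4% of all genes. Tnfrsf13b, which encodes TACI, had 38 and 59 fragments at its shared place (1.55, 1.03 to 2.33) and regions numbering 2 and 6. Tnfrsf13c, which encodes the BAFF receptor, had 31 and 46 at its start (1.48, 0.941 to 2.34). At Tnfrsf17, which encodes BCMA, the one shared place, with folds of 2.28 and 3.38, lay at the start of Snx29, and no region lay at the Tnfrsf17 start.

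Decoy receptors and their relatives bind ligand without passing on a death signal. Tnfrsf22, Tnfrsf23 and Tnfrsf26 lie side by side on chromosome 7. Each had a strong region in the IL-4 library and only weaker ones in the untreated library. Tnfrsf23, a mouse decoy TRAIL receptor, had 30 and 57 fragments at its start (1.90, 1.22 to 2.96). It also had the strongest of the regions that had no untreated counterpart, with fold 3.56 and 59 fragments, 463 bp before the start. Tnfrsf26 had 35 and 71 fragments (2.03, 1.35 to 3.04) and Tnfrsf22 had 32 and 45 (1.41, 0.894 to 2.21). Tnfrsf11b encodes osteoprotegerin, a soluble decoy for RANKL, and had 1 IL-4 region of fold 2.02 (33 fragments) inside the gene.

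The promoters of the family were searched for 5 sets of letters on both strands in the 250 bases before each of 36 listed starts of 32 members. NF-kB letters (GGGNNNNNCC) were present in 22 of 36 (61.1%), beside 51.8% of 21263 promoters of the same length. STAT6 letters (TTCNNNNGAA), the half-sites with a 4-base spacer preferred by the factor that IL-4 activates, were in 4 (11.1%), beside 5.39%. Those 4 were Lta, Ltbr and both listed starts of Tnfsf13b, which share 1 match. AP-1 letters (TGANTCA) were in 6 (16.7%, beside 6.13%), the PU.1 core (GAGGAA) in 12 (33.3%, beside 22.2%) and TATA letters (TATAAA) in 6 (16.7%, beside 11.6%). Overlapping matches of one motif count as 1 promoter. No interval was made for these motif shares, some members count with more than 1 start, and the differences from all promoters were not tested. The family's promoters held a median of 7.5 CpG dinucleotides, beside 10 in all promoters, at nearly the same GC content of 55.8% and 55.6%. A match is a description of letters and no evidence of a bound factor.

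The adaptors and regulators that act below these receptors had stronger regions than the family itself. All 32 of 32 listed genes had a region in the window in both libraries, beside 82.1% and 87.6% of all genes. A strong one was present at 25 and then 32, beside 53.3% and 75.4%. Of the 28 with a known start, 24 and then 28 had a start region, beside 55.2% and 66.2%. The median of their highest folds was 3.75 and 5.30, beside 2.72 and 3.38 over the family and 3.02 and 3.79 over all genes with a region. Most of their windows were longer than the median window of 23.5 kb in the family and 27.2 kb over all genes. Longer windows can hold more regions, and length was not accounted for in these window values. Birc3, which encodes the ubiquitin ligase cIAP2 and is an NF-kB target, had the highest fold, 8.90 and 10.6. Cyld and Otulin, which encode deubiquitinases that restrain TNF signalling, had folds of 5.50 and 9.21, and of 4.69 and 8.50. Adam17, the protease that sheds TNF, had 5.16 and 8.89, and Map3k7, the TAK1 kinase gene, 5.03 and 8.06. The fold was lower in the IL-4 library at Map3k14, the NIK kinase gene, with 6.95 and 6.24, and at Tab3, with 3.35 and 3.08. Of the 6 family genes that the symbol rule misses, 4 and then 3 had a region in the window. Relt had folds of 3.75 and 5.49, Edar 2.97 and 2.83, and Ngfr 2.59 and 2.10. Eda had untreated regions alone, of fold up to 2.35, and Cd40lg and Eda2r had none.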

How the data were processed

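The input was the peak list of each library and RefSeq tables. The genome build was mm10, and the tools listed are MACS2 2.2.7.1, Bowtie 0.12.8 and DiffBind, per the submitters' processing notes. Their roles and settings are not given there. The deposited fold is the authors' ratio of pileup to background at the summit, and the −log10 p and −log10 q were deposited beside it. The deposited score is a whole number per region and was not used. Depth in reads is not stated. Fold and −log10 p together gave back the summit pileup, a whole number within 0.05 for 100% of regions.

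The members and gene lists were chosen with earlier results of these data known. Regions counted with 1 bp inside the gene body and 5 kb each side, and as shared with 1 bp of overlap. Where several overlapped, the highest fold of each library was taken. Gene windows came from RefSeq on GRCm38.p6, the assembly of mm10, and strands and starts (within 1 kb) from its promoter table, which holds 32 of 41 members and 17492 of 21887 genes. Exon, intron and UTR positions were not analysed here. All members are named, with pileups and folds for Tnf, Lta, Ltb, Tnfrsf1a, Tnfrsf1b, Ltbr, Cd40 and Fas, for the 10 highest folds of each library, and folds for the 5 strongest regions in 1 library alone and for members in 1 library alone. With 1 library per group there was no test. Shares carry exact Clopper-Pearson 95% intervals, and ratios Poisson intervals on the log scale. The computations were tested on simulated data and used pandas 2.3.3, numpy 2.4.6, scipy 1.17.1 and matplotlib 3.10.9 under Python 3.11.15. Alternatives covered strength limits, equal list lengths, window sizes, overlap rules, shared windows and scaling.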

Additional observations from a re-analysis of the deposited data

How the results depend on the processing

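Of 106 values recomputed under alternatives, 25 moved, none reversed and 81 stayed within a limit: 1.5 times the reported number for a count, and the 95% interval of the reported value for the median ratio and the ratio of region numbers. With only regions of −log10 q at least 5, members with an untreated region in the window numbered 19 of 41, beside 53.3% of all genes. At the start they numbered 8 of 32, beside 33.9%. Untreated and IL-4 regions numbered 24 and 79, a ratio of 3.29 beside 2.45 over all genes. Members with a region in the IL-4 library alone numbered 17 of 41, beside 23.1%. Untreated regions alone were 3 of 24, beside 14.1%, and IL-4 regions alone 58 of 79, beside 64.9%. With only regions of fold at least 3, members in the window numbered 13 untreated and 26 IL-4 of 41, beside 41.3% and 59.2% of all genes. At the start they numbered 6 and 11 of 32, beside 27.3% and 41.3%. Regions numbered 12 and 46, a ratio of 3.83 beside 1.98 over all genes. Members with a region in 1 library alone numbered 14 (IL-4) and 1 (untreated) of 41, beside 19.1% and 1.14%. Untreated regions alone were 1 of 12, beside 10.8%, and IL-4 regions alone 35 of 46, beside 55.1%. With the IL-4 list shortened to the length of the untreated list, the ratio of region numbers was 1.69, beside 1.12 over all genes. With no flank, 11 of 41 members had a region in the IL-4 library alone, beside 10.7% of all genes. With 10 kb it was 2 of 41, beside 5.31%, with 22 of 125 untreated regions alone, beside 31.4%. The median ratio of shared places was 1.28 when taken from the deposited folds, beside 1.09 over all genes. With pileups divided by the constant backgrounds, an alternative chosen after seeing the data, it was 1.40, beside 1.17.

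No paired analysis was possible because each group has 1 library, and for the same reason no library could be left out. The lowest pileup listed was 23 in the untreated and 26 in the IL-4 library, so a gene without a region may hold signal below those heights, and the limits differ between the lists. The spread between cultures, mice or library preparations was not measured.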
